A study of Homo sapiens with 95 samples.

Results

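The report describes AALE cells with a CRISPR knockout of CDKN2A against AALE cells that received the GFP control plasmid, both with the solvent DMSO alone. The members are the 3 CDKN2A samples and the 3 GFP samples with DMSO, 6 of the 95 samples of the series, taken by their labels. Every gene with a mean count above 1 over these 6 samples entered the comparison, which left 14540 genes.

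AALE is a line of human bronchial epithelial cells immortalized with the SV40 early region and telomerase, so the SV40 large T antigen, which binds both RB and p53, is shared by every group. The series crossed 8 lines (knockouts of CDKN2A and FAT1, a GFP control, overexpression of NRF2, FGFR1, NRG1 and PIK3CA, and an HcRed control) with 4 exposures (DMSO, the smoke condensate CSC at 24 μg/ml, the hydrocarbon benzo(a)pyrene or BaP at 173 μM, and the nitrosamine NNK at 490 μM), and profiled RNA by sparse full length (SFL) sequencing of barcoded, pooled libraries. GFP cells carried the PX458 plasmid, which encodes Cas9 and EGFP, without a guide RNA. HcRed cells carried an empty vector with the reporter HcRed and no Cas9, and their 3 DMSO samples served as a check on the genes named. Whether the knockout cells were a clone or a pool, which guide was used, and whether the 3 samples of a group came from separate edits are not given in the sources used here. The p-values therefore measure the spread between samples of 1 line, and the effect of the edit and other differences between the lines cannot be told apart.

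CDKN2A encodes 2 unrelated proteins from overlapping reading frames. p16INK4A inhibits CDK4 and CDK6 and so keeps RB bound to E2F factors, and ARF binds MDM2 and so protects p53. The locus is lost in many lung squamous cell carcinomas, often together with its neighbours CDKN2B, the gene of the related inhibitor p15INK4B, and MTAP, an enzyme of methionine salvage.

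The 6 libraries held 988951 to 1319161 counted reads, and the 3 HcRed libraries 694898 to 1173281. At this depth 3 reads stand for 2.27 to 3.03 CPM, the reads of a gene scaled to a common library total, and ranges and intervals of counts cover counting error only. A gene is called higher or lower where limma-voom gave it a Benjamini-Hochberg adjusted p under 0.05. The 11 markers of airway basal epithelium, KRT5 and TP63 among them, were all expressed, with a summed level of 6348 to 6567 CPM in CDKN2A, 6737 to 7241 CPM in GFP and 8100 to 8627 CPM in HcRed. The 8 fibroblast markers summed to 25.6 to 34.4 CPM in CDKN2A and 10.3 to 14.4 CPM in GFP, nearly all of it COL1A1, and LUM, DCN, THY1, COL1A2 and COL3A1 had no read in the 6 samples. The 7 leukocyte and endothelial markers summed to 12.2 to 13.6 CPM in CDKN2A and 8.45 to 10.6 CPM in GFP, with CD3E, VWF and CDH5 at 0. The secretory genes SCGB1A1, MUC5AC and MUC5B and the neuroendocrine factor INSM1 also had no read in the 6 samples, and the 3 ciliated and 3 neuroendocrine markers summed to at most 4.70 CPM and 2.56 CPM. In bulk RNA, fewer cells of a type and less RNA per cell cannot be told apart.

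The targeted gene was still transcribed in the knockout line, at a lower level. CDKN2A (chromosome 9 of GRCh37, 21967751 to 21995300, minus strand) had 43, 39 and 53 reads in the 3 CDKN2A samples, 84, 104 and 102 reads in the GFP samples and 76, 46 and 62 reads in the HcRed samples. The CDKN2A samples lay below all GFP samples, and the groups did not overlap as log2 CPM. The log2 fold change was -1.06 ± 0.16 (SE, n = 3 per group, adjusted p = 1.02e-07 from limma-voom), or a level 2.08-fold lower than in GFP. Against HcRed it was -0.65 ± 0.17 (adjusted p = 0.00231, limma-voom), and GFP itself stood 0.42 above HcRed on the log2 scale. Among the DMSO samples of the other lines CDKN2A ranged from 60.1 to 97.3 CPM, above the 36.6 to 46.0 CPM of the knockout line. A frameshift need not remove the RNA, and the count joins the p16INK4A and ARF transcripts, so this level checks the label only in part.

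Most of the genes listed beside CDKN2A were also lower than in GFP. Of 14 genes listed for the locus, CDKN2A and INK4 genes of other chromosomes among them, 10 were tested, with a median log2 fold change of -0.65. Of the 8 on 9p, CDKN2A included, 6 were lower in the CDKN2A line and none higher. Over all genes tested 5408 were called (37.2%), of which 2741 (18.9%) were higher and 2667 (18.3%) lower, with a median of 0.02. Against HcRed 4 of 10 locus genes were lower and none higher (median -0.41), beside 15.3% lower over all genes. In GFP against HcRed 3 of 11 were higher and none lower (median 0.26), beside 8.76% higher over all genes. MTAP had 102, 66 and 85 reads in CDKN2A, 156, 151 and 191 in GFP and 151, 90 and 153 in HcRed. Its log2 fold change was -0.95 ± 0.12 (adjusted p = 1.17e-09, limma-voom) against GFP and -0.84 against HcRed. CDKN2B had 64, 62 and 55 reads in CDKN2A and 99, 72 and 136 in GFP, a difference of -0.70 ± 0.15 (adjusted p = 0.000116, limma-voom). The mean of CDKN2B with DMSO was 54.99 CPM both in the knockout line and in the PIK3CA line. The antisense RNA CDKN2B-AS1, whose reads cannot be separated from those of CDKN2B where strand is not counted, differed by -1.25 ± 0.28. As log2 CPM its CDKN2A samples (3.506 to 4.166) overlapped those of HcRed (3.984 to 4.515). KLHL9, a substrate adaptor of a ubiquitin ligase used in mitosis, differed by -0.59 ± 0.14. ELAVL2, a neuronal RNA-binding protein gene at 23690102 to 23826335 on the same chromosome, fell most, with 27, 26 and 27 reads in CDKN2A, 91, 88 and 121 in GFP and 59, 34 and 54 in HcRed (-1.85 ± 0.19, adjusted p = 3.28e-13 from limma-voom). The transcription factor DMRTA1 (-0.48, adjusted p = 0.31) and the interferon gene IFNE (0.05, adjusted p = 0.931) were not called by limma-voom. The INK4 genes on other chromosomes, CDKN2C (-0.28, adjusted p = 0.185) and CDKN2D (0.17, adjusted p = 0.683), were not called by limma-voom either.

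**Figure D1:**
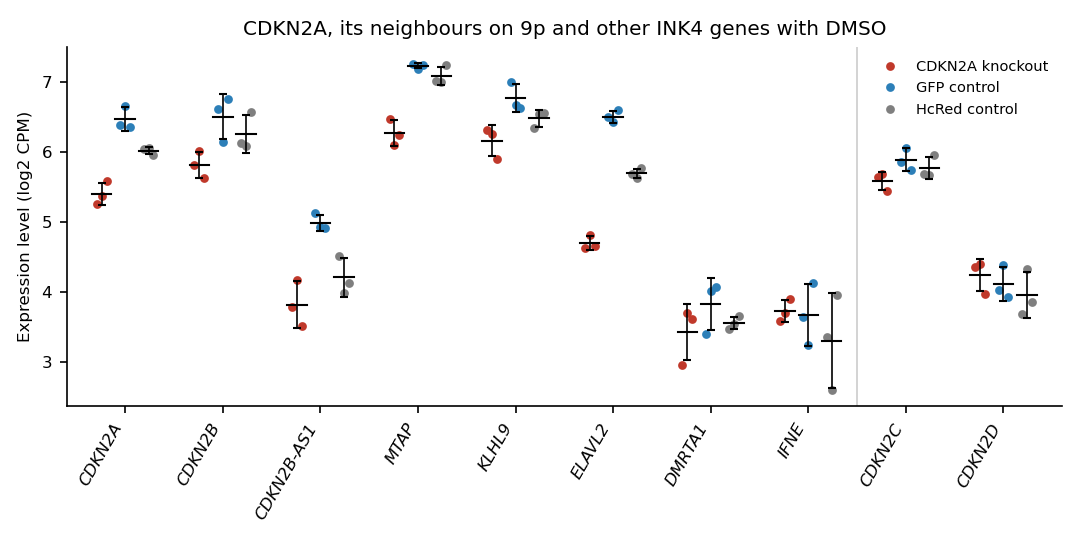
Expression level (log2 CPM) of CDKN2A, 7 neighbours on 9p and, right of the line, CDKN2C and CDKN2D in the 3 CDKN2A, 3 GFP and 3 HcRed samples with DMSO. Points are samples and bars the mean ± SD (n = 3). CDKN2A, CDKN2B, CDKN2B-AS1, MTAP, KLHL9 and ELAVL2 lie lower in the knockout line than in the GFP control, while DMRTA1, IFNE and CDKN2D overlap between the lines.

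Against GFP the lower level was not particular to the targeted gene but extended along chromosome 9. On 9p the arm median was -0.72 against GFP and -0.59 against HcRed. On 9q it was -0.36 against GFP and -0.09 against HcRed, and GFP stood 0.30 above HcRed there. Within 1 Mb of CDKN2A 5 of the 8 other genes counted 10 times or more on average were called lower, and within 10 Mb 23 of 29, none of them higher. The median log2 fold change of these 29 genes was -0.94 (quartiles -1.18 and -0.59), next to the -1.06 of CDKN2A itself. Among all genes with that mean count 24% were called lower and 22.3% higher. The same 29 genes had a median of 0.25 in GFP against HcRed, which shares the GFP samples. RPS6, a ribosomal protein gene of the short arm, had 777, 637 and 728 reads in CDKN2A and 1196, 1136 and 1398 in GFP, a log2 fold change of -0.76 ± 0.05. VLDLR, a lipoprotein receptor gene of the same arm, differed by -0.80 ± 0.17, and SLC25A51, the mitochondrial NAD carrier, by -1.62 ± 0.28. TPM2, a tropomyosin gene, went the other way, with 47, 62 and 62 reads in CDKN2A, 13, 9 and 12 in GFP and 121, 69 and 97 in HcRed (2.31 ± 0.28), and was the 1 gene of 9p called higher among those whose mean count reached 10.

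**Figure D2:**
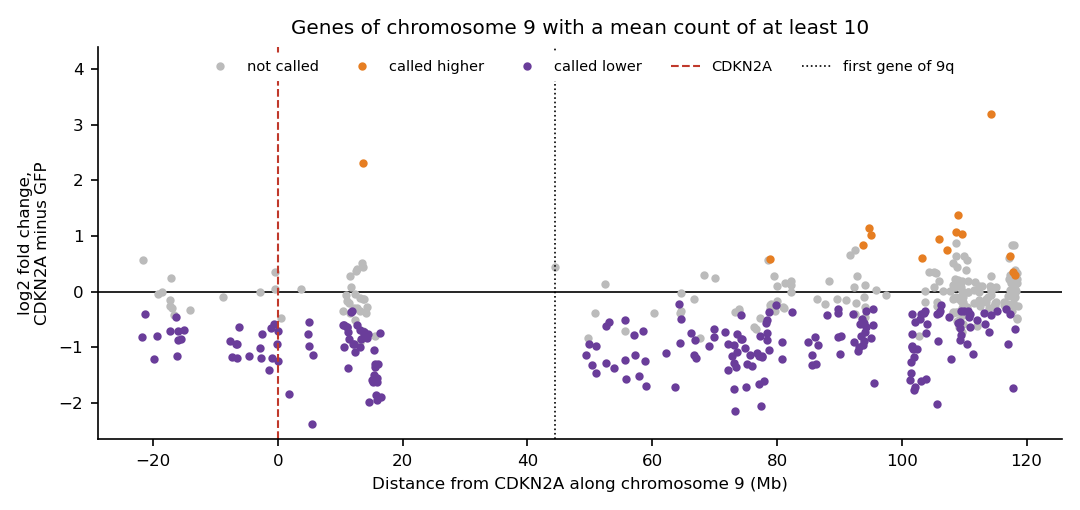
Log2 fold change, CDKN2A minus GFP with DMSO, of 438 other genes of chromosome 9 whose mean count reached 10, by distance from CDKN2A in Mb. Purple points are the 219 genes called lower, orange the 15 called higher and grey those not called. The dashed line marks CDKN2A and the dotted line the first gene of 9q. Genes lower than in GFP extend from the locus over both arms.

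Shifts over long stretches of other chromosomes were seen as well. Of 41 arms with at least 20 genes of mean count 10 or more, 15 had a median log2 fold change beyond 0.3 in size, 7 of them below and 8 above 0. On 9p 71 of 112 genes were lower (median -0.72), on 7q 181 of 290 (-0.60) and on 13q 115 of 189 (-0.59). On 4q 183 of 270 genes were higher than in GFP (0.66), on 22q 125 of 219 (0.51) and on 3q 177 of 327 (0.42). Not every arm shifted over its whole length. The 10-Mb windows of 13q had medians of -0.84 to -0.68 up to 80 Mb but of -0.22 to 0.01 from 90 Mb on, and those of 3q lay at -0.11 to 0.10 up to 130 Mb and at 0.49 to 0.76 beyond. The 15 arms held 1913 of the 4716 called genes and 3377 of all 10151 genes placed on the 41 arms. RB1 lies on 13q and CDK6, the kinase that p16INK4A inhibits, on 7q. DNA was not analysed here.

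The level of each arm in a single sample was taken as the median, over its genes, of log2 CPM minus the median of the 8 DMSO lines. The 3 CDKN2A samples lay at -0.59 to -0.49 on 9p, where the samples of the other 7 lines lay at -0.09 to 0.15. On 7q they lay at -0.46 to -0.41 against -0.07 to 0.26, and on 3q at 0.54 to 0.58 against -0.14 to 0.21. These arms set the knockout line apart from all other lines. On 16p the GFP line was lowest, at -0.66 to -0.63. There the CDKN2A samples, at -0.34 to -0.24, also lay below the other 6 lines, at -0.04 to 0.20. On 22q GFP lay at -0.40 to -0.30 and CDKN2A at 0.10 to 0.14, inside the range of the other lines. On 4q GFP lay at -0.465 to -0.352 and CDKN2A at 0.187 to 0.197, just above PIK3CA at 0.168 to 0.184. The median log2 fold change of 4q was -0.461 in GFP against HcRed and 0.216 in CDKN2A against HcRed. In all, the CDKN2A samples were below every sample of the other 7 lines on 13 arms and above on 10, and the GFP samples below on 4 and above on 8. Arm shifts were not confined to these lines. FAT1, the other knockout line, lay below every other sample on 2q (-0.482 to -0.435) and Xp (-0.535 to -0.502). On 12p it lay above every other sample (0.244 to 0.349).

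**Figure D3:**
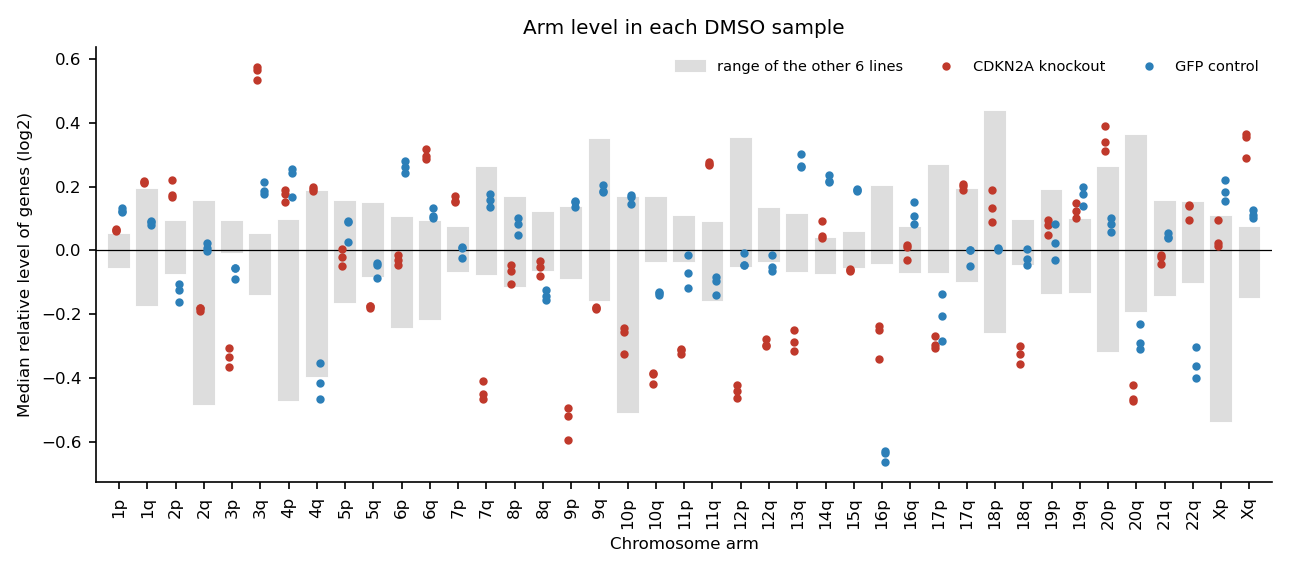
Median relative level (log2) of the genes of 41 chromosome arms in each DMSO sample. Red points are the 3 CDKN2A samples, blue the 3 GFP samples, and grey bars the range of all samples of the other 6 lines. The knockout line stands below the rest on 9p and 7q and above it on 3q, and the GFP line stands below the rest on 16p and 22q.

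Because position moved with the result, every sample was also corrected for the median deviation of its 10-Mb windows, a step chosen after the data were seen. Each group of genes below was counted again after it, and the counts are printed for part of the groups. After this correction 3502 of 13778 genes were called (25.4%), 13.1% higher and 12.3% lower. Of the 5253 earlier calls that could be tested again, 2678 were called in the same direction and 67 in the opposite one. CDKN2A itself then differed by -0.24 and was not called, and MTAP by -0.12, since their own window was part of the correction. Counts against HcRed are given for most groups beside those against GFP. In that comparison 4278 of 14393 genes were called (29.7%), 14.4% higher and 15.3% lower. GFP against HcRed gave 2518 of 14218 genes (17.7%), 8.76% higher in GFP and 8.95% lower. The 3 comparisons share samples in pairs, so they are not independent of each other.

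The cyclin, CDK and RB genes, the axis on which p16INK4A acts, moved in both directions. Of 25 tested 10 were lower and 4 higher, with a median log2 fold change of -0.25. RB1, the pocket protein that p16INK4A keeps active, had 215, 166 and 195 reads in CDKN2A, 391, 394 and 533 in GFP and 271, 158 and 274 in HcRed. It fell by 1.16 ± 0.08 on the log2 scale against GFP, and its difference from HcRed was -0.48 (both called by limma-voom). CDK6, the kinase that p16INK4A inhibits, had 200, 159 and 170 reads in CDKN2A, 370, 347 and 428 in GFP and 322, 191 and 327 in HcRed, with a difference of -1.08 ± 0.09 from GFP and -0.86 from HcRed. After the window correction both were still called lower, at -0.44 and -0.43. CDK4, its partner kinase, differed by -0.14 (adjusted p = 0.605, limma-voom). The inhibitor CDKN1B, or p27, was lower (-1.04 ± 0.19, and -1.11 against HcRed), as was the repressor E2F8 (-1.66 ± 0.27, and -1.35 against HcRed), itself a target of E2F factors.

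CCND1, the cyclin that activates CDK4 and CDK6, was the largest rise of this axis. It had 221, 184 and 219 reads in CDKN2A, 46, 62 and 61 in GFP and 173, 99 and 173 in HcRed. The rise against GFP was 1.92 ± 0.13 (adjusted p = 1.91e-20, limma-voom) and the difference from HcRed 0.29 ± 0.10 (adjusted p = 0.0208, limma-voom), since GFP stood 1.62 below HcRed. The other 3 higher members were TFDP2, the DNA-binding partner of E2F factors (0.69), CCNA2, the cyclin of S and G2 phase (0.36), and CDKN1A, or p21 (0.24). Of these TFDP2 and CCNA2 lie on 3q and 4q, where the median was positive, and after the window correction CCNA2 was at -0.33 and TFDP2 at 0.07. CDKN1A lost its call when any of 4 single libraries was left out. With the correction the axis had 8 lower and 2 higher members of 25, and against HcRed 6 and 4.

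Genes of mitosis and the spindle were lower in the knockout line, against both controls. Of 43 tested 27 were lower and 3 higher (median -0.40). Against HcRed 28 were lower and 2 higher (median -0.47), and after the window correction 23 of 42 were lower and none higher. TOP2A, the topoisomerase that untangles sister chromatids, had 1279, 1127 and 1240 reads in CDKN2A, 2694, 2489 and 2966 in GFP and 1851, 1000 and 1602 in HcRed. Its log2 fold change was -1.12 ± 0.04 (adjusted p = 4.08e-38, limma-voom) and -0.48 against HcRed. The spindle motor KIF11 had 220, 152 and 189 reads in CDKN2A, 390, 388 and 401 in GFP and 507, 275 and 408 in HcRed, differing by -1.03 ± 0.09 and, against HcRed, by -1.28. The cytokinesis motor KIF20A fell by 1.05 ± 0.11, with -0.98 against HcRed. CKAP2 (-1.37), NUSAP1 (-1.0) and CENPF (-0.82) also fell. The 3 higher members were PLK1 (0.57), CDC25B (0.45) and ECT2 (0.19). None of these 3 was called higher after the window correction, and the call of PLK1 was lost without CDKN2A replicate 1. The proliferation marker MKI67, given as a usual marker of cycling cells, had 1325, 1074 and 1267 reads in CDKN2A, 1812, 1912 and 2337 in GFP and 2446, 1380 and 2149 in HcRed, a difference of -0.69 ± 0.04 from GFP and -0.90 from HcRed.

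DNA replication genes were lower against GFP but not against HcRed. Of 44 tested 20 were lower and 5 higher (median -0.27), while against HcRed 7 were lower and 9 higher (median 0.01). In GFP against HcRed 12 were higher and 2 lower. The polymerase POLE was at -0.73, the clamp loader subunit RFC3 at -0.86 and the primase PRIM1 at -0.67. The 5 higher members were RRM2, a subunit of ribonucleotide reductase (0.81 ± 0.07), thymidine kinase TK1 (0.76), POLA2 (0.62), MCM5 (0.53) and FEN1 (0.51). Only RRM2 of these 5 was still called after the window correction, at 0.24, where 16 of the 44 genes were lower.

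The p53 pathway, which ARF controls through MDM2, showed no common direction. Of 30 genes tested 6 were higher and 8 lower (median 0.08), and against HcRed 9 and 7. MDM2, the ubiquitin ligase of p53 and itself a target gene, was at -0.27 ± 0.09 (adjusted p = 0.0125, limma-voom), and at 0.08 after the window correction. TP53I3, an oxidoreductase gene induced by p53, had 50, 71 and 58 reads in CDKN2A, 23, 17 and 24 in GFP and 53, 41 and 49 in HcRed. It rose by 1.48 ± 0.23 against GFP and differed by 0.10 from HcRed (adjusted p = 0.722, limma-voom). MDM4, the other p53 inhibitor of this family, fell (-0.80, and -0.61 against HcRed), as did the DNA damage sensor XPC (-0.66, and -0.72 against HcRed). After the window correction 3 members were lower in place of 8.

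Of 21 senescence genes tested, CDKN2A among them, 8 were higher and 6 lower (median 0.24), and against HcRed 6 of 20 were higher and 7 lower (median -0.06). HMGA2, a chromatin protein linked to senescent heterochromatin and to tumours, had 140, 76 and 113 reads in CDKN2A, 18, 22 and 32 in GFP and 45, 29 and 47 in HcRed. It rose by 2.19 ± 0.21 against GFP and by 1.22 against HcRed. The interleukin gene IL1A, part of the senescent secretome, was higher at 1.40 (0.68 against HcRed), and IGFBP7 at 0.97 (1.68 against HcRed). EZH2, the methyltransferase of polycomb that represses the CDKN2A locus, was lower at -1.0 ± 0.12 (-0.60 against HcRed), and lies on 7q. TERT was lower at -1.36, with 10, 12 and 29 reads in CDKN2A, 21, 32 and 87 in GFP and 374, 241 and 291 in HcRed. The CDKN2A and GFP samples overlapped for TERT as log2 CPM, DESeq2 did not call it, and counts do not separate the endogenous gene from a telomerase transgene.

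Ligands, receptors and feedback genes of EGF and ERK signalling were mostly higher. ERK is the kinase at the end of the RAS and RAF cascade, and it induces immediate early genes together with phosphatases and Sprouty proteins that dampen it. Of 41 genes tested 24 were higher and 1 lower, with a median log2 fold change of 1.17. Against HcRed 21 were higher and 1 lower (median 0.67), after the window correction 22 of 40 were higher and 1 lower (median 0.92), and in GFP against HcRed 2 were higher and 9 lower (median -0.28). The 1 lower member was the receptor ERBB3, named as the exception, with 26, 35 and 27 reads in CDKN2A and 56, 60 and 65 in GFP (-1.02 ± 0.20, and -1.04 against HcRed).

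Among the ligands, EREG had 156, 113 and 142 reads in CDKN2A, 21, 12 and 17 in GFP and 49, 31 and 46 in HcRed. Epiregulin, its product, activates EGFR, and the gene rose by 3.07 ± 0.23 on the log2 scale (adjusted p = 3.93e-19, limma-voom) against GFP and by 1.5 against HcRed. EGFR itself had 747, 665 and 820 reads in CDKN2A, 402, 408 and 558 in GFP and 721, 420 and 646 in HcRed. It rose by 0.74 ± 0.06 against GFP and differed by 0.12 from HcRed (adjusted p = 0.0986, limma-voom). The ligand gene NRG1, chosen after its values were seen, had 32, 36 and 287 reads in CDKN2A, 25, 20 and 35 in GFP and 31, 12 and 13 in HcRed. Its rise of 1.45 rested on CDKN2A replicate 3 and was 0.41 and not called without it.

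Of the feedback genes, DUSP6, the phosphatase that dephosphorylates ERK, had 103, 67 and 99 reads in CDKN2A, 8, 11 and 5 in GFP and 19, 16 and 22 in HcRed. The CDKN2A samples lay far above both controls, with a rise of 3.55 ± 0.33 (adjusted p = 6.29e-15, limma-voom) against GFP and 2.02 against HcRed. The Sprouty gene SPRY4 had 23, 18 and 24 reads in CDKN2A, 2, 5 and 4 in GFP and 7, 4 and 9 in HcRed (2.51 ± 0.47, and 1.45 against HcRed). ETV5, an ETS factor induced by ERK and chosen after its values were seen, had 134, 108 and 125 reads in CDKN2A, 35, 44 and 39 in GFP and 35, 32 and 34 in HcRed. Both controls were alike for ETV5, differing by 0.00, and the CDKN2A line was 1.67 above each of them, while 3q, where it lies, was higher as a whole and the corrected difference was 0.97.

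Of the transcription factors that ERK induces, MYC had 162, 140 and 182 reads in CDKN2A, 27, 34 and 57 in GFP and 108, 63 and 98 in HcRed. It rose by 2.09 ± 0.16 (adjusted p = 4.9e-18, limma-voom) against GFP and by 0.65 against HcRed, and GFP stood 1.44 below HcRed. EGR1 had 161, 119 and 161 reads in CDKN2A, 23, 45 and 50 in GFP and 79, 95 and 126 in HcRed (1.97 ± 0.17, and 0.41 against HcRed). The AP-1 subunit FOSL1 had 26, 20 and 31 reads in CDKN2A, 2, 6 and 13 in GFP and 14, 9 and 9 in HcRed (2.06 ± 0.40, and 1.04 against HcRed). For all 3 factors the knockout line was highest, HcRed between and GFP lowest by group mean.

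Inflammatory cytokines and their regulators, many of them low, were also higher. Of 27 tested 12 were higher and 2 lower (median 0.82), against HcRed 8 and 0 (median 0.77). TNFAIP3, the ubiquitin editor known as A20 that NF-kappaB induces, had 32, 25 and 42 reads in CDKN2A, 7, 1 and 12 in GFP and 11, 8 and 10 in HcRed. It rose by 2.62 ± 0.43 against GFP (1.82 without GFP replicate 2) and by 1.51 against HcRed. The receptor accessory protein gene IL1RAP was higher at 0.84 (0.85 against HcRed), and the inhibitor NFKBIA at 0.58 (0.26 against HcRed, adjusted p = 0.213 from limma-voom). The 2 lower members were the interleukin receptor antagonist IL1RN (-1.84, with 3, 1 and 5 reads in CDKN2A) and the mucosal chemokine CCL28 (-1.58, with 6, 2 and 5 reads). With only genes of mean count 10 or more, 5 of 9 members were higher. Among all genes with that mean count 22.3% were called higher in the first comparison.

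Interferon-stimulated genes were higher against GFP and divided against HcRed. Of 37 tested 15 were higher and 5 lower (median 0.47), but against HcRed 4 of 38 were higher and 6 lower (median -0.09). GFP against HcRed had 1 higher and 8 lower (median -0.54). HERC5, the ligase that attaches ISG15, had 41, 39 and 49 reads in CDKN2A, 4, 5 and 7 in GFP and 9, 5 and 14 in HcRed, a rise of 2.94 ± 0.38 against GFP and 2.0 against HcRed. Its neighbour HERC6 rose by 2.24 (0.76 against HcRed) and IFI44 by 2.63 (0.83 against HcRed). LGALS3BP, a secreted glycoprotein gene, rose by 1.69 against GFP but lay at -0.42 against HcRed, and the helicase gene DDX60 rose by 1.08 but lay at -0.47. The 5 lower members included the signal transducer STAT2 (-0.92), IRF1 (-0.61), SAMD9 (-0.74) and PARP12 (-0.83). IRF1 lost its call without any of 5 single libraries. DESeq2 called 8 of the 37 members higher in place of 15, and over all genes 3402 in place of 5408 in either direction. With only genes of mean count 10 or more, 6 of 22 were higher, near the 22.3% called higher among all genes with that mean count. Of 10 genes of MHC class I presentation 1 was higher, the chaperone CALR (0.47 ± 0.06), and none lower, while 5 were higher after the window correction.

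**Figure D4:**
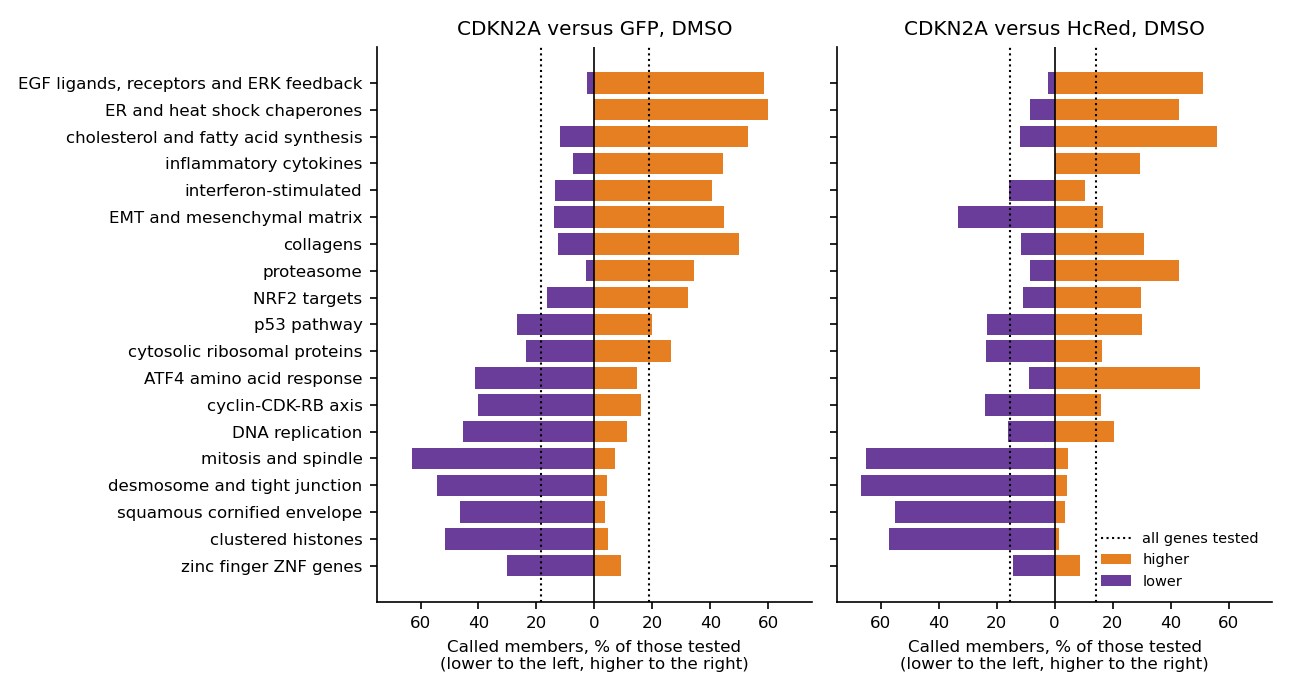
Share of tested members called higher (right) or lower (left) in percent for 19 gene lists, CDKN2A against GFP and CDKN2A against HcRed with DMSO. Dotted lines give the shares over all genes tested, 18.9% and 18.3% in the left panel and 14.4% and 15.3% in the right. EGF and ERK genes, chaperones and cholesterol genes lie to the right in both panels and mitosis, desmosome and squamous genes to the left in both, while EMT, interferon, ATF4 and replication genes change between panels.

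Genes of the mesenchymal matrix and of epithelial to mesenchymal transition (EMT) gave opposite pictures against the 2 controls. Of 29 tested 13 were higher and 4 lower against GFP (median 0.34), and 5 of 30 were higher and 10 lower against HcRed (median -0.35). In GFP against HcRed 1 of 28 was higher and 12 lower (median -0.95). FN1, the fibronectin gene, had 566, 429 and 549 reads in CDKN2A, 107, 123 and 174 in GFP and 892, 578 and 785 in HcRed. It was 1.98 ± 0.09 above GFP and 0.74 below HcRed on the log2 scale, each called by limma-voom. THBS1, the thrombospondin gene, had 1406, 934 and 1232 reads in CDKN2A, 209, 347 and 315 in GFP and 688, 439 and 697 in HcRed, so that CDKN2A was above both (2.09 ± 0.08 and 0.77). The fibrillin gene FBN2 had 63, 52 and 64 reads in CDKN2A, 3, 1 and 3 in GFP and 17, 10 and 14 in HcRed (4.53 ± 0.52, and 1.89 against HcRed). The 4 lower members were the actin-binding genes TPM1 (-1.06) and CALD1 (-0.74) and the matrix genes FBN1 (-0.96) and FBLN1 (-0.67), and FBLN1 was not called without any of 3 single libraries.

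The matricellular genes CTGF and CYR61, targets of YAP, were both higher. CTGF had 46, 25 and 25 reads in CDKN2A, 1, 5 and 4 in GFP and 5, 10 and 11 in HcRed (3.25 ± 0.51, and 1.75 against HcRed). CYR61 had 188, 126 and 168 reads in CDKN2A, 23, 40 and 45 in GFP and 81, 52 and 52 in HcRed (2.21 ± 0.17, and 1.19 against HcRed). The Hippo and YAP list as a whole was divided, with 9 of 25 higher and 8 lower (median -0.04), and 8 of 26 and 6 against HcRed. Its receptor kinase AXL was higher (0.87), and the angiomotin AMOT (-2.94 ± 0.48), which holds YAP in the cytoplasm, VGLL3 (-1.14) and TEAD3 (-0.83) were lower.

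Of 37 genes of TGF-beta and activin signalling 8 were higher and 7 lower (median 0.02), and against HcRed 5 of 38 were higher and 10 lower. TGFB1 had 99, 79 and 87 reads in CDKN2A, 19, 37 and 45 in GFP and 77, 52 and 56 in HcRed (1.47 ± 0.19, and 0.33 against HcRed with adjusted p = 0.0871 from limma-voom). The BMP target ID1 (1.62) and the latency protein gene LTBP1 (1.19) were higher and SMAD2 was lower (-0.86), each also against HcRed. Without GFP replicate 1, and with DESeq2, the list had 5 higher members. Of 31 proteases and inhibitors 9 were higher, with the urokinase receptor PLAUR (1.09) and SERPINE2 (0.99), and 7 lower, with the lysosomal protease CTSV (-1.60) and HTRA1 (-1.15). Against HcRed 4 of the 31 were higher and 7 lower, and these 4 named genes were called in the same direction. Of 24 collagens 12 were higher and 3 lower (median 0.59), and against HcRed 8 of 26 and 3. Among the higher ones were the basement membrane genes COL4A1 (0.79 ± 0.11, and 0.47 against HcRed) and COL4A5 (0.91, and 0.79). The 3 lower collagens were COL4A4 (-1.33), COL5A3 (-1.24, lost in 4 of 6 leave-outs) and COL17A1 (-0.93), the hemidesmosomal collagen of basal cells. DESeq2 called 7 collagens higher.

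Of 30 genes of hemidesmosomes, laminins and integrins 13 were higher and 8 lower (median 0.39), and against HcRed 13 of 29 and 10. PLEC, which links keratins to integrins, had 4328, 3710 and 4648 reads in CDKN2A, 1574, 1937 and 2015 in GFP and 3470, 2211 and 2742 in HcRed (1.24 ± 0.03, and 0.40 against HcRed). The fibronectin receptor ITGA5 was higher too (1.11, and 0.49 against HcRed). LAMA5 was lower (-0.99 ± 0.09, and -0.98 against HcRed), with both controls alike (0.01).

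Desmosome genes, which join epithelial cells to one another, were lower in the knockout line against both controls. Of 24 desmosome and tight junction genes tested 13 were lower and 1 higher (median -0.40), against HcRed 16 and 1 (median -0.44), and after the window correction 12 and 0. DSG3, the desmoglein of basal squamous layers, had 97, 106 and 114 reads in CDKN2A, 394, 345 and 421 in GFP and 336, 201 and 285 in HcRed. The CDKN2A samples lay below every control sample, with a fall of 1.83 ± 0.10 (adjusted p = 4.3e-25, limma-voom) against GFP and -1.57 against HcRed. DSC3 had 270, 223 and 254 reads in CDKN2A, 656, 579 and 793 in GFP and 560, 285 and 513 in HcRed (-1.40 ± 0.07, and -1.05 against HcRed). DSP, the plaque protein that anchors keratins, had 2880, 2471 and 2807 reads in CDKN2A, 5631, 4983 and 6383 in GFP and 4522, 2788 and 3948 in HcRed (-1.02 ± 0.03, and -0.66 against HcRed). DSG2 was at -0.90 (-0.89 against HcRed). The 1 higher member was the plakophilin PKP2 (0.40), which lost its call without CDKN2A replicate 1 or GFP replicate 2.

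Genes of the squamous cornified envelope behaved in the same way. Of 28 tested 13 were lower and 1 higher (median -0.65), against HcRed 16 of 29 and 1 (median -0.90), and after the window correction again 13 and 1. SCEL, the sciellin gene, had 49, 32 and 38 reads in CDKN2A, 140, 147 and 160 in GFP and 105, 53 and 111 in HcRed (-1.87 ± 0.16, and -1.36 against HcRed). SERPINB13, a squamous protease inhibitor, had 21, 28 and 21 reads in CDKN2A, 95, 64 and 103 in GFP and 52, 24 and 55 in HcRed (-1.86 ± 0.21, and -1.10 against HcRed). The kallikrein KLK5, which cuts desmosomal proteins during shedding, had 2, 3 and 3 reads in CDKN2A, 18, 28 and 26 in GFP and 15, 11 and 23 in HcRed (-2.92 ± 0.51). ANXA1 was at -1.37, though at -0.25 after correction for its place on 9q. The 1 higher member was the transglutaminase TGM2, with 9, 14 and 20 reads in CDKN2A and 1, 6 and 4 in GFP (2.01), which differed by -0.35 from HcRed (adjusted p = 0.447, limma-voom). With only genes of mean count 10 or more, 8 of 12 members were lower. Among all genes with that mean count 24% were called lower in the first comparison.

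Of 21 Notch genes 6 were higher and 2 lower (median 0.33), the same counts as against HcRed. After the window correction 3 of 19 were higher and 2 lower (median 0.15). NOTCH3, a receptor tied to early differentiation of airway basal cells, had 13, 10 and 27 reads in CDKN2A, 73, 70 and 123 in GFP and 59, 32 and 47 in HcRed. It fell by 2.42 ± 0.25 (adjusted p = 1.01e-12, limma-voom), with -1.73 against HcRed and -2.47 after the window correction. The ligand JAG1 had 230, 190 and 240 reads in CDKN2A, 88, 101 and 132 in GFP and 117, 62 and 107 in HcRed, and rose by 1.08 ± 0.11 (1.01 against HcRed). The other lower member was HES2 (-1.41, lost without CDKN2A replicate 3).

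Of 17 keratins 4 were higher and 4 lower (median 0.27), and 1 of 18 higher and 6 lower against HcRed. KRT8 (0.89 ± 0.14) and KRT19 (0.61 ± 0.06), simple keratins, were higher. KRT7, also a simple keratin, was lower, at 0 to 7.82 CPM in CDKN2A and an uneven 3.76 to 32.6 CPM in GFP. The basal keratins KRT14 (-0.49) and KRT5 (-0.34) were lower too, KRT5 being at -0.01 after the window correction. Of 16 markers of airway basal cells 5 were higher and 6 lower (median 0.01). Among them S100A2 had 808, 712 and 834 reads in CDKN2A, 324, 451 and 475 in GFP and 456, 292 and 447 in HcRed (0.96 ± 0.07, and 0.78 against HcRed), TP63 was at 0.34 and CAV1, on 7q, at -0.76. TP63 lies on 3q and was at -0.37 after the window correction, and CAV1 at 0.04. Of 13 S100 proteins 7 were higher and 2 lower (median 0.94), while against HcRed 3 of 14 were higher and 3 lower (median 0.00). Most of them, 12 of 13, lie on 1q, and after the window correction 4 were higher and 2 lower (median 0.68). S100A9, a subunit of the antimicrobial calprotectin, had 62, 37 and 78 reads in CDKN2A, 8, 14 and 14 in GFP and 108, 64 and 98 in HcRed, so that it was 2.28 ± 0.29 above GFP and 0.84 below HcRed. Against GFP the 2 lower members were S100A11 (-0.34) and S100A10 (-0.27).

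Of 21 cadherins, protocadherins and nectins 9 were higher and 5 lower (median 0.41), and against HcRed 5 of 22 and 5. FAT1, a protocadherin gene knocked out in another line of the series, had 1253, 1082 and 1270 reads in CDKN2A, 408, 413 and 582 in GFP and 792, 417 and 691 in HcRed. It was higher by 1.40 ± 0.06 (0.73 against HcRed). It lies on 4q, where most genes were higher than in GFP, and its difference was 0.59 after the window correction. PCDH1, an adhesion gene of airway epithelium, had 8, 9 and 6 reads in CDKN2A, 51, 50 and 62 in GFP and 44, 29 and 33 in HcRed (-2.74 ± 0.32, and -2.36 against HcRed). CDH13 (-1.72) and NECTIN4 (-1.29) were lower, and PCDH7 (2.44) and NECTIN3 (4.35, between 3.59 and 5.48 with 1 library left out) higher.

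**Figure D5:**
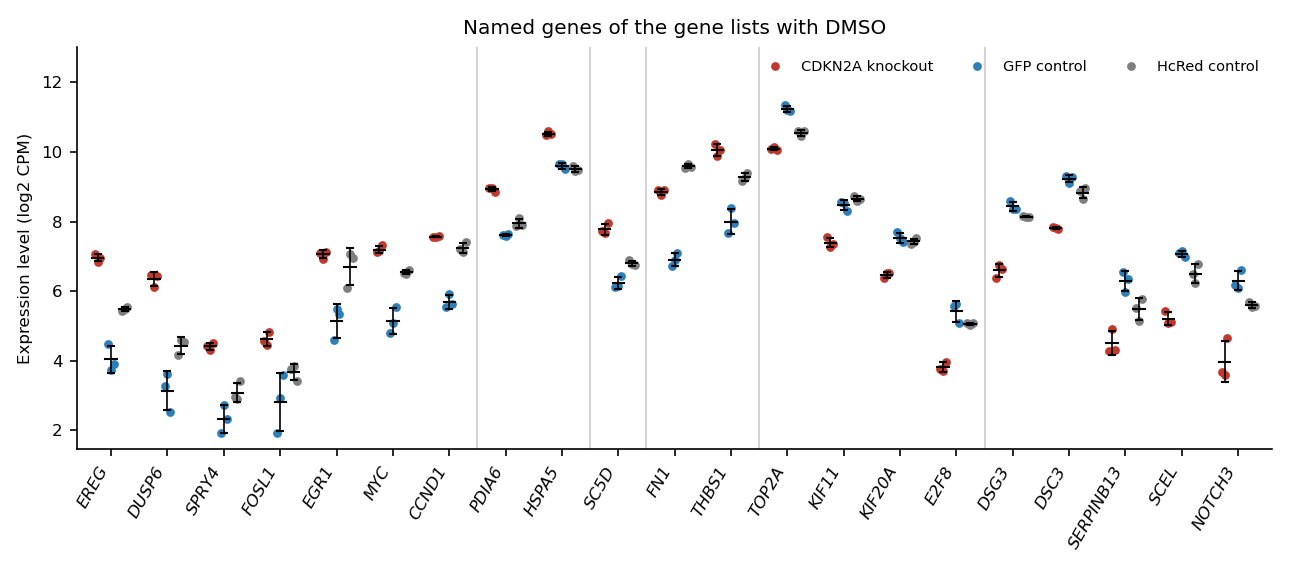
Expression level (log2 CPM) of 21 named genes in the 3 CDKN2A, 3 GFP and 3 HcRed samples with DMSO. Points are samples and bars the mean ± SD (n = 3), and grey lines separate ERK genes with CCND1, chaperones, the cholesterol gene SC5D, matrix genes, cell cycle genes, and adhesion, squamous and Notch genes. DUSP6 and EREG in CDKN2A lie above both controls and DSG3 and NOTCH3 below both, while FN1 lies between GFP and HcRed.

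Many chaperones of the endoplasmic reticulum and of the heat shock response were higher. Of 35 tested 21 were higher and none lower (median 0.44), against HcRed 15 and 3 (median 0.23), and after the window correction 25 and 1. HSPA5, the reticulum chaperone BiP, had 1692, 1534 and 1686 reads in CDKN2A, 825, 850 and 929 in GFP and 926, 498 and 738 in HcRed. Both controls were alike (0.04), and CDKN2A stood 0.95 ± 0.04 above GFP (adjusted p = 6.08e-30, limma-voom) and 0.99 above HcRed. The disulfide isomerase PDIA6 had 591, 499 and 537 reads in CDKN2A, 202, 200 and 256 in GFP and 274, 195 and 246 in HcRed (1.34 ± 0.08, and 0.99 against HcRed). HYOU1 (1.31, and 0.96 against HcRed) and DNAJB11 (1.02, and 1.18) were higher as well. The cytosolic chaperone HSP90AA1 had the smallest p of all genes, with 6539, 5291 and 6368 reads in CDKN2A, 3325, 3236 and 4014 in GFP and 4002, 2062 and 3290 in HcRed (0.82 ± 0.02, adjusted p = 2.93e-48 from limma-voom, and 0.76 against HcRed). HSF1, the factor of the heat shock response, was 1.36 above GFP and 0.23 above HcRed (adjusted p = 0.253, limma-voom).

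Of 35 proteasome genes 12 were higher and 1 lower (median 0.18), against HcRed 15 and 3. The regulatory subunit PSMD2 had 971, 879 and 949 reads in CDKN2A, 377, 441 and 512 in GFP and 466, 283 and 368 in HcRed (1.11 ± 0.06, and 1.13 against HcRed), and lies on 3q, with a corrected difference of 0.41. PSMD3 (0.95) and PSMD11 (0.89) were higher as well. The 1 lower member was the assembly chaperone PSMD5 (-0.40), at 0.09 after the window correction for 9q.

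The amino acid response driven by ATF4 moved opposite ways against the 2 controls. Of 34 genes 14 were lower and 5 higher against GFP (median -0.19), and 3 lower and 17 higher against HcRed (median 0.34), with 26 higher in GFP against HcRed. PSAT1, an enzyme of serine synthesis, had 204, 172 and 176 reads in CDKN2A, 577, 615 and 654 in GFP and 226, 141 and 200 in HcRed. It fell by 1.70 ± 0.08 against GFP and differed by -0.24 from HcRed (adjusted p = 0.0587, limma-voom). The isoleucyl-tRNA synthetase gene IARS was at -1.29 (-0.43 against HcRed) and the folate enzyme ALDH1L2 at -1.28 (-0.60). The 5 higher members were the pseudokinase TRIB3 (0.86 ± 0.15, and 1.44 against HcRed), the cystine transporter SLC7A11 (0.78 ± 0.07), DDIT4 (0.50), SLC7A5 (0.48) and its partner SLC3A2 (0.36). SLC7A11 had 692, 557 and 652 reads in CDKN2A, 357, 383 and 400 in GFP and 159, 81 and 175 in HcRed, an order in which GFP stood between the other lines.

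Cholesterol and fatty acid synthesis genes were higher against both controls. Of 34 tested 18 were higher and 4 lower (median 0.40), and against HcRed 19 and 4 (median 0.38). The sterol desaturase SC5D had 247, 199 and 286 reads in CDKN2A, 70, 72 and 109 in GFP and 139, 77 and 109 in HcRed (1.58 ± 0.12, adjusted p = 9.84e-19 from limma-voom, and 0.97 against HcRed). DHCR7 (1.11, and 0.87 against HcRed) and the fatty acid synthase FASN (0.97, and 0.68) rose as well. MSMO1, on 4q, was at 1.19 and at 0.32 after the window correction. The 4 lower members included CYP51A1 (-0.53), EBP (-0.50) and the desaturase SCD (-0.21), of which CYP51A1 and EBP were at 0.12 and 0.05 after the correction.

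Of 39 genes of glycolysis and hypoxia 11 were higher and 7 lower (median 0.11), and against HcRed 9 of 40 and 9. Hexokinase HK2 had 85, 62 and 75 reads in CDKN2A, 23, 22 and 28 in GFP and 58, 40 and 40 in HcRed (1.62 ± 0.20, and 0.50 against HcRed), and HIF1A was 0.61 above each control. Of 37 NRF2 targets 12 were higher and 6 lower (median 0.41), and against HcRed 11 and 4. The malic enzyme ME1 had 265, 216 and 251 reads in CDKN2A, 84, 105 and 120 in GFP and 116, 57 and 115 in HcRed (1.28 ± 0.11, and 1.16 against HcRed), and SRXN1 was at 1.07 (0.89). The ferritin light chain FTL had 751, 601 and 735 reads in CDKN2A, 151, 150 and 180 in GFP and 231, 115 and 184 in HcRed (2.15 ± 0.08, and 1.78 against HcRed), and the heavy chain FTH1 was at 1.09 (0.84). Both ferritin genes have near-identical copies elsewhere in the genome, so their counts are uncertain. NQO1, the usual NRF2 marker, was lower (-0.40). Of 14 aryl hydrocarbon receptor and CYP genes 5 were higher and 1, NQO1, lower, with CYP1B1 at 0.81 (-0.14 against HcRed, adjusted p = 0.443 from limma-voom). Of 6 metallothionein and zinc genes 3 were higher, with MT2A at 0.74 ± 0.07 (0.01 against HcRed, adjusted p = 0.881 from limma-voom).

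Clustered histone genes were lower as a group, and against GFP so was the arm that holds most of them. Of 62 tested 32 were lower and 3 higher (median -0.41), and against HcRed 36 of 63 and 1. Of the 47 that could be placed on 6p by symbol 30 were lower, where the arm median was -0.30, and 4 members, HIST1H4F among them, could not be placed. After the window correction 5 of 57 were lower and 5 higher (median -0.01). The histone genes were themselves part of the windows corrected, so a median near 0 was in part fixed in advance. Against HcRed the median of the 6p arm was -0.04 and that of the histone list -0.42. The 6p window from 20000001 to 30000000 was at -0.37 against HcRed. HIST1H3D had 80, 56 and 93 reads in CDKN2A and 128, 156 and 151 in GFP (-0.89 ± 0.13), and -0.46 after the correction. The 3 higher members were HIST3H2BB (1.32), HIST1H4F (1.27) and HIST2H3PS2, with 3, 5 and 9 reads in CDKN2A and 0, 0 and 2 in GFP. Histone genes are near copies of each other and their counts may be split between them.

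Zinc finger (ZNF) genes, most of them transcriptional repressors, were more often lower. Of 472 tested 142 were lower and 44 higher (median -0.24), while in GFP against HcRed 17 were lower and 88 higher. Against HcRed 68 of 470 were lower and 42 higher (median 0.02). On 19p 43 of 74 were lower, on 19q 41 of 161, and after the window correction 79 of 465 were lower and 28 higher. ZNF736 had 17, 10 and 16 reads in CDKN2A, 87, 70 and 93 in GFP and 46, 20 and 54 in HcRed (-2.47 ± 0.25, and -1.62 against HcRed). ZNF471 had no read in the CDKN2A samples, 16, 24 and 30 in GFP and 9, 10 and 14 in HcRed. With a floor of 3 reads over the group it was at least 22.4-fold lower than in GFP. ZNF471 passed the count filter through its GFP reads, so its direction was largely fixed by it.

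Of 27 polycomb and chromatin genes 9 were higher and 3 lower (median 0.30), and against HcRed 10 and 1. After the window correction 5 were higher and 4 lower (median 0.06). JARID2, an accessory factor of polycomb, was at 0.65 (0.79 against HcRed) and 0.89 after the window correction for 6p. DNMT3A (0.89) and TET2 (0.75) were higher before the correction and at 0.06 and 0.32 after it, of which the call of TET2 remained. Of 39 HOX genes 8 passed the count filter, and 3 of these were higher, each with few reads, and none lower. HOXA10 had 5, 4 and 13 reads in CDKN2A, 0, 1 and 1 in GFP and none in HcRed, a ratio to GFP of 11.5 (95% counting interval 2.82 to 100). HOXC9 and HOXC6 had no read in GFP and 13 and 9 in all in CDKN2A, at least 4.51-fold and 3.13-fold higher against the floor of 3 reads over the group. HOXA10, HOXC9 and HOXC6 passed the filter through their CDKN2A reads, so their direction was largely fixed by it. No HOX gene reached a mean count of 10.

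Of 3 nuclear retained RNAs tested 2 were higher. NEAT1, the scaffold of paraspeckles, had 6706, 8698 and 6655 reads in CDKN2A, 1621, 1716 and 2860 in GFP and 2999, 1527 and 2608 in HcRed (1.86 ± 0.09, and 1.43 against HcRed), and was at 1.42 after the window correction. MALAT1, beside it on 11q, was at 0.69 (0.54 against HcRed) and at 0.26 after it. Of 22 small nucleolar host genes 3 were higher and 1 lower, with SNHG1 at 0.64. Of 29 genes of ribosome biogenesis and partners of ARF 9 were higher and 4 lower (median 0.15), while against HcRed 4 were higher and 12 lower. PES1, a factor of ribosomal RNA maturation, had 110, 73 and 93 reads in CDKN2A, 36, 35 and 41 in GFP and 59, 35 and 56 in HcRed (1.32 ± 0.17, and 0.67 against HcRed). HUWE1, the ubiquitin ligase that ARF binds, fell by 0.67 ± 0.04 (-0.21 against HcRed).

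Ribosomal protein and respiratory chain genes had no common direction. Of 80 ribosomal protein genes 21 were higher and 19 lower (median 0.02), against HcRed 13 and 19, and after the window correction 13 and 10. Next to RPS6, RPL22 was lower (-1.12 ± 0.19) and RPL39L (1.62) and RPS25 (0.90) higher, and the many pseudogene copies of these genes make their counts uncertain. Of 79 respiratory chain genes 14 were higher (17.7%) and 15 lower (19%, median -0.05), near the 18.9% and 18.3% over all genes tested. Against HcRed 6 were higher and 17 lower, and after the correction 4 and 6. NDUFC1, on 4q, was at 1.01 and NDUFA5, on 7q, at -1.0, and at 0.16 and -0.33 after the correction.

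Of 250 solute carriers 62 were higher and 38 lower (median 0.14), and against HcRed 40 of 251 and 34. The higher ones included the glucose transporter SLC2A6 (3.2, with 13, 22 and 20 reads in CDKN2A and 0, 2 and 5 in GFP, and 2.33 without GFP replicate 1) and the drug and toxin exporter SLC47A1 (2.03 ± 0.28). Of 31 Wnt genes 6 were higher and 4 lower (median 0.16), while against HcRed 4 of 34 were higher and 7 lower. The Wnt inhibitor DKK1 had 112, 81 and 132 reads in CDKN2A, 20, 20 and 46 in GFP and 103, 40 and 99 in HcRed, so that it was 1.99 ± 0.20 above GFP and 0.25 above HcRed (adjusted p = 0.208, limma-voom). The coreceptor LRP5 was at 1.10 (0.74 against HcRed). Of 14 airway secretory and antimicrobial genes 3 were higher and 1 lower, while against HcRed 2 of 13 were higher and 5 lower (median -0.31). Of 10 ciliated cell genes 1 was higher and 1 lower, and of the 2 immune and 3 neuroendocrine genes tested none was called. The factor FOXA1, of the secretory list, was at 1.18 ± 0.28 (0.82 against HcRed).

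The largest single rises were of genes nearly silent in the GFP control. They were chosen by size of change and passed the count filter through their CDKN2A reads. Near silence in GFP and the direction were thus largely fixed by the choice, which the intervals do not allow for. ROS1, a receptor tyrosine kinase gene, had 94, 69 and 84 reads in CDKN2A, 0, 0 and 1 in GFP and 15, 12 and 12 in HcRed, a ratio to GFP of 257 (95% counting interval 45.8 to 10210) and a log2 difference of 2.44 from HcRed. H19, an imprinted long non-coding RNA, had 41, 46 and 52 reads in CDKN2A, none in GFP and 0, 2 and 2 in HcRed, and was at least 48.3-fold higher than in GFP with a floor of 3 reads over the group. SLCO4C1, an anion transporter, had 93 reads in all in CDKN2A and 1 in GFP, a ratio of 96.9 (95% counting interval 17 to 3868). The ratio was 64.6 (11.2 to 2592) for the kinase gene PRKD1, 38.0 (10.2 to 320) for PCYT1B, 26.1 (8.58 to 129) for the RAS-like gene MRAS and 19.8 (6.44 to 98.8) for BHMT2. PLEKHG4 had 48, 36 and 25 reads in CDKN2A and 0, 3 and 2 in GFP (4.44), and EPDR1 50, 36 and 43 against 1, 1 and 4 (4.30).

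The largest single falls were mostly of genes nearly silent in the knockout line. They too were chosen by size of change and passed the count filter through their GFP reads, so their direction was largely fixed by the choice. IRX2, a homeobox gene, had 6, 2 and 0 reads in CDKN2A, 78, 95 and 130 in GFP and 41, 26 and 43 in HcRed (-5.62 ± 0.62, and -4.41 against HcRed). PXDN, a matrix peroxidase, had 2, 5 and 10 reads in CDKN2A, 55, 48 and 83 in GFP and 79, 42 and 55 in HcRed (-3.54 ± 0.41, and -3.70 against HcRed). GBP6, an interferon-inducible GTPase, had 0, 4 and 1 reads in CDKN2A, 34, 24 and 29 in GFP and 9, 3 and 14 in HcRed (-4.31 ± 0.69). RIC3 had no read in CDKN2A, 26, 18 and 16 in GFP and 1, 0 and 2 in HcRed, at least 19.2-fold lower than in GFP against the floor, so that GFP stood apart from both other lines. MFAP5, a microfibril gene, was 25.6 (95% counting interval 8.45 to 127) times lower by summed reads and ZFP3 29.3 (7.76 to 247) times. With 1 library left out the log2 fold change of IRX2 lay between -6.49 and -4.53, of GBP6 between -5.12 and -3.47 and of PXDN between -4.05 and -2.93. The value of ULK4, of 3p, rested on uneven GFP samples. It had 20, 15 and 13 reads in CDKN2A and 113, 115 and 1047 in GFP (-3.98, and -2.90 without GFP replicate 3).

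Among the 10 genes with the smallest p, after HSP90AA1, DSP, PLEC, TOP2A, FTL, THBS1 and FAT1, were 3 further lower genes. SYNE2, which links the nucleus to actin, had 1165, 966 and 1149 reads in CDKN2A, 2194, 2046 and 2479 in GFP and 1327, 774 and 1267 in HcRed (-1.0 ± 0.04, and -0.23 against HcRed). TPT1 was at -0.95 ± 0.04 (-0.70 against HcRed) and lies on 13q, with -0.24 after the window correction. The chromatin gene DEK was at -1.03 ± 0.04 (-0.35 against HcRed).

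The same lines treated with CSC, BaP or NNK, 9 samples each that share none with the comparison above, gave the same contrast with treatment as a covariate. There 7269 of 14277 genes were called (50.9%), 25.9% higher and 25% lower. Of the 5408 genes called with DMSO 4630 (85.6%) were called in the same direction, which is 63.7% of the treated calls, and 2 in the opposite direction. CDKN2A was at -1.19, MTAP at -0.73 and ELAVL2 at -1.70 in the treated samples. DUSP6 was at 2.76, EREG at 2.71, MYC at 1.54, CCND1 at 1.93, HSPA5 at 0.99, TOP2A at -1.14, DSG3 at -1.44 and NOTCH3 at -1.69. Of the ERK list 32 of 41 were higher and 2 lower, of the mitosis list 32 of 43 lower and 3 higher, and of the squamous list 16 of 29 lower and 2 higher. KRT7 was at 0.54 in place of -2.38 with DMSO. By an interaction term 4 genes of 14383 (0.0278%) had a line difference that differed between DMSO and the treated samples. These samples come from the same 2 lines, so they repeat the measurement and not the edit.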

How the data were processed

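RNA of AALE cells was profiled by sparse full length sequencing of dual-barcoded, pooled libraries as single reads of 75 bp. Per the study's methods, the authors trimmed reads with cutadapt (version 1.12), checked them with FastQC (0.11.5), aligned them to hg19 with STAR (2.5.2b) and counted them in RefSeq genes with featureCounts. The deposited values are raw counts per gene and sample, not normalised. Strand use in the counting is not given in the sources used here.

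Groups were taken from the labels. The 3 CDKN2A and 3 GFP samples with DMSO were fitted with limma-voom (limma 3.58.1, R 4.3.3) on TMM-scaled counts of genes with a mean count above 1, with Benjamini-Hochberg adjustment over all genes tested. The study also used limma-voom, but restricted its results to the most variable genes after the fit. GFP against HcRed and CDKN2A against HcRed were fitted the same way, and the treated samples with treatment as a covariate. A call is an adjusted p under 0.05. Log2 CPM used a prior count of 2. Low-count ratios have 95% exact counting intervals.

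Alternatives were edgeR's quasi-likelihood test (edgeR 4.0.16), DESeq2 (1.42.0), DESeq2 size factors, other count filters, a replicate block, all 24 DMSO samples in one fit, correction for GC content and length, and each library left out. The 10-Mb window correction and the interaction test were chosen after the data were seen. Positions came from GENCODE models on GRCh37, matched by symbol for 25085 of 27978 genes.

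Named genes were CDKN2A and its locus, the 12 largest rises and falls among called genes whose mean count reached 10 and whose groups did not overlap, the 10 smallest p, and up to 6 called members of each of 46 lists by size of change, plus usual markers. ERBB3, NRG1, ETV5, TGM2, PKP2, ASPH and the few members that went against their list were named after their values were seen. A few genes that the rule selects are not reported here. The members and lists were chosen with earlier results of these data known.

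On simulated counts for the first comparison with 200 changed genes among 14239, limma-voom recovered 82% of 2-fold changes, edgeR 83% and DESeq2 62.5%. With 40 windows shifted by a smaller factor besides the 2-fold changes, 82.4% of the limma-voom calls were outside the 200 genes. After the window correction 1.19% were. The simulated shifts were placed by window, the same unit that the correction centres, so this low share was largely built in. Whether the correction works as well on the real data, where shifts can break inside a window or related genes can share one, was not tested.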

Additional observations from a re-analysis of the deposited data

Results flagged for a closer look

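The line difference was compared between DMSO and the CSC, BaP and NNK samples by an interaction term in limma-voom with Benjamini-Hochberg adjustment, and 4 of 14383 genes differed (0.0278%). SLC7A11, the cystine transporter gene, had a line difference smaller with DMSO by -0.506 ± 0.090 on the log2 scale (adjusted p = 0.00335, limma-voom). It lay at 563 to 589 CPM in CDKN2A and 303 to 358 CPM in GFP with DMSO, and at 716 to 846 CPM and 295 to 320 CPM with CSC. DEK, a chromatin gene lower in the knockout line, had a difference of -0.310 ± 0.061 (adjusted p = 0.0153, limma-voom), with 807 to 849 CPM in CDKN2A and 1611 to 1753 CPM in GFP with DMSO. ASPH, a hydroxylase gene, had -0.432 ± 0.090 (adjusted p = 0.0350, limma-voom), with 402 to 417 CPM in CDKN2A and 304 to 364 CPM in GFP with DMSO. DDIT4, an inhibitor of mTORC1, had 0.423 ± 0.091 (adjusted p = 0.0459, limma-voom), with 327 to 334 CPM in CDKN2A and 225 to 240 CPM in GFP with DMSO.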

How the results depend on the processing

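DESeq2 called 3402 genes and the window correction 3502, in place of 5408. In GFP against HcRed they called 989 and 1172 in place of 2518, and in CDKN2A against HcRed 2370 and 2100 in place of 4278. With 1 library left out the counts were 4620 to 4956, 1776 to 2111, 3537 to 3882 and, in treated samples, 6901 to 7231. A replicate block gave 5473, 2510, 4167 and 7199 calls. Same-numbered samples of the first comparison, 3 pairs, correlated at 0.00433 to 0.0326 in their deviations. What the replicate number stands for is not given in the sources used here, and shared handling was not tested. With the GC and length correction KRT6A was at -0.021, and at -0.023 with the block added. After the window correction the difference changed sign for CDKN2B (0.118), KLHL9 (0.234), SMAD1 (-0.051), TIPARP (-0.035), CAV1 (0.041), RPS6 (0.134), SNHG16 (-0.101), MDM2 (0.08), CCNA2 (-0.328), MCM5 (-0.004), ECT2 (-0.328), CYP51A1 (0.116), EBP (0.046), SLC3A2 (-0.079), PSMD5 (0.086) and TP63 (-0.367). It corrects for position by construction, and whether position is the cause of a difference was not tested. The cause of the lower DESeq2 counts was not tested. Depth limits low genes: 3 reads were 2.27 to 3.03 CPM.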

Other observations

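Some genes had uneven or line-specific levels among the DMSO samples. NRG1 lay at 27.3 to 249 CPM within the 3 CDKN2A samples. KRT7, a simple keratin, lay at 0 to 7.82 CPM in CDKN2A, 3.76 to 32.6 CPM in GFP and 2.62 to 6.18 CPM in FAT1, against 186 to 222 CPM in HcRed. SPARC, a matrix gene, lay at 0.852 to 1.74 CPM in CDKN2A and 0.939 to 12.9 CPM in GFP, against 44.6 to 54.3 CPM in HcRed. CCND2, a D-type cyclin, lay at 4.05 to 9.37 CPM in CDKN2A and 5.63 to 19.0 CPM in GFP, against 171 to 197 CPM in FAT1 and 145 to 154 CPM in HcRed. SPARC and CCND2 were chosen after their values were seen.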
